A study of Ovis aries with 6 samples.

Results

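The genes described here encode isozymes of glycolysis, the pathway that turns glucose into pyruvate and lactate in the cytosol. They are the aldolases ALDOA and ALDOC, the enolases ENO1 and ENO2, the lactate dehydrogenase subunits LDHA and LDHB, pyruvate kinase PKM, phosphoglycerate kinase PGK1, and the phosphofructokinase subunits PFKP and PFKM. The 10 genes were chosen by symbol, and 9 of them had a row (the IDs gene-ALDOA, gene-ALDOC and so on) among 26067 features in the tables used here. PFKP was not analysed here. RNA came from the pituitary of 6 sheep (Ovis aries), per the labels, and was read as amplified full-length complementary DNA on Oxford Nanopore devices. The study's design names 3 small-tailed Han sheep as a high-reproduction group and 3 Wadi sheep as a low-reproduction group, all healthy and of like body composition, with no age, treatment or allele given. Nothing in the labels ties a library, C1 to C6, to a breed. The breeds were therefore not compared, and values are given per library, without replicates.

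Several steps of glycolysis are catalysed by related enzymes encoded by separate genes, and tissues differ in which they use. ALDOA is the main aldolase of muscle and of most tissues, while ALDOC is the brain form, carried by astrocytes and, in bands, by cerebellar Purkinje cells, where the protein is also known as zebrin II. ENO1 is widely expressed, and ENO2, the neuron-specific enolase, is the form of neurons and neuroendocrine cells. LDHA subunits favour the conversion of pyruvate to lactate, and LDHB subunits, which are abundant in heart and brain, favour the reverse reaction. In the pituitary these enzymes serve hormone-secreting cells of the anterior lobe and glia and nerve endings of the posterior lobe.

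The libraries held between 1981644 and 2732911 gene counts, so that 1 count was worth 0.366 to 0.505 CPM (counts per 1000000 gene counts). The label pituitary was checked against 7 pituitary hormone genes with a row. Their sum was 139, 47.2, 50.3, 142071, 299657 and 47146 CPM over C1 to C6. It was far lower in the first 3 libraries than in the others, and TSHB had 0 counts in C1, C2 and C3, POMC 0 counts in C1 and FSHB 0 counts in C2 and C3. In C1, C2 and C3 all 13 listed markers of cerebellar granule and Purkinje cells exceeded 10 CPM, against 4, 4 and 5 of 13 in C4, C5 and C6. These 3 libraries therefore go against their tissue label, and the ratios of the isozymes and other glycolytic enzymes that rest on them are also given without them where C4, C5 and C6 alone reached 60 counts. In whole-tissue RNA, fewer cells of a type and less RNA per cell cannot be told apart. All intervals are 95% intervals and cover counting error only: the complementary DNA was amplified and carried no molecular identifiers, so reads need not stem from separate molecules.

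The aldolase genes differed in how much they varied. In C1 to C6, in that order, ALDOC stood at 2498, 2522, 3182, 46.0, 50.4 and 772 CPM. It was thus high in C1, C2 and C3, low in C4 and C5, and between them in C6, with neither C1 and C2 nor C4 and C5 separable by counting error. The level in C3, the highest, was 69.2-fold that in C4 (exact conditional interval 57.1 to 84.7; chi-square of 14783.5 on 5 degrees of freedom against the library totals). Without C1, C2 and C3, the largest ratio was 16.8 (13.8 to 20.7), between C6 and C4. ALDOA stood at 41.6, 31.5, 34.1, 49.0, 50.01 and 53.5 CPM in C1 to C6. No neighbouring pair in this order of levels differed beyond its interval, and the ratio of C6 to C2 was 1.70 (1.27 to 2.29; chi-square adjusted p = 0.000367), under the minimum of 2 set for a call. When the libraries were scaled by edgeR TMM factors, by DESeq2 size factors or by the total without hormone genes, the ratio of ALDOA was 2.10, 2.25 or 2.27, with C5 highest, and the gene was then called.

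**Figure D1:**
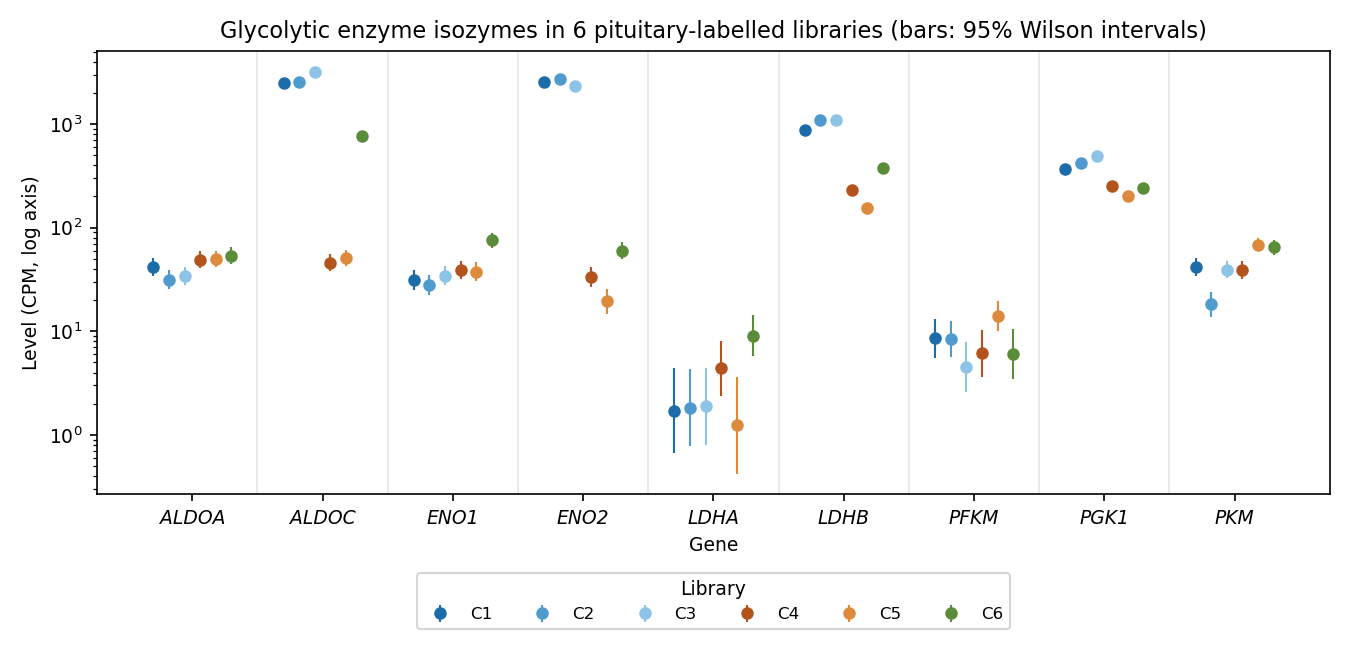
Level of each isozyme gene in each library, in CPM on a log axis, with 95% Wilson intervals as bars and 1 point per library. ALDOC, ENO2 and LDHB are highest in C1, C2 and C3, ALDOC is also at 772 CPM in C6, and ALDOA stays between 31.5 and 53.5 CPM.

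Within a library, the levels of different genes were compared in the authors' TPM (transcripts per 1000000), which take length into account. Whether scaling by length suits reads of full-length complementary DNA was not tested. Shares or ratios of reads, which are not scaled by length, are therefore also given. ALDOC exceeded ALDOA by 52.8, 71.1 and 81.4 times in C1, C2 and C3, with ALDOC at 300.0, 327 and 481 TPM and ALDOA at 5.68, 4.59 and 5.91 TPM. In C6 the excess was 12.9 times, at 179 against 13.8 TPM. In C4 and C5 the order was the other way and the difference small, with ALDOA at 15.1 and 16.7 TPM and ALDOC at 13.0 and 15.3 TPM. Of the reads counted for either gene, ALDOC took 98.4, 98.8 and 98.9% in C1, C2 and C3, 48.4% in C4 (Wilson interval 41.8 to 55.0%), 50.2% in C5 (44.0 to 56.4%) and 93.5% in C6 (92.2 to 94.6%). The balance of C4 and C5 did not differ beyond counting error, nor did that of C1 and C2 or of C2 and C3.

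The enolases gave a different order of libraries. Over C1 to C6 the level of ENO2 was 2567, 2690.2, 2326, 33.7, 19.4 and 60.1 CPM. It was high in C1, C2 and C3 and low in the other 3, C6 included, and every neighbouring pair in its order of levels was separated by more than counting error. C2 exceeded C5 by 138-fold (interval 104 to 189; chi-square of 16352), a ratio that was 79.8 without C5 and, in C4, C5 and C6 alone, 3.09 (2.19 to 4.43) between C6 and C5. ENO1 stood at 31.3, 27.8, 34.4, 39.0, 37.6 and 75.2 CPM. C6 was the highest, 2.70-fold above C2 (2.04 to 3.61; chi-square adjusted p = 2.81e-15) and 1.93-fold above C4 (1.47 to 2.54), and no 2 neighbours among the other 5 libraries were separated. Without C6 the ratio was 1.40 and ENO1 was no longer called.

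In TPM, ENO2 exceeded ENO1 by 71.4, 35.0 and 36.8 times in C1, C2 and C3. ENO1 exceeded ENO2 by 3.53, 2.88 and 2.74 times in C4, C5 and C6, with ENO1 at 23.5, 11.8 and 26.5 TPM and ENO2 at 6.65, 4.10 and 9.66 TPM. The share of ENO2 in the reads of both genes was 98.8, 99.0 and 98.5% in C1, C2 and C3, 46.4% in C4 (39.0 to 54.0%), 34.1% in C5 (26.7 to 42.3%) and 44.4% in C6 (38.6 to 50.4%). The balance thus lay on the ENO2 side in 3 libraries and on the ENO1 side, in TPM, in the other 3. By reads, the intervals of C4 and C6 held equal shares, and only C5 lay on the ENO1 side beyond counting error. ENO3, the muscle enolase, had at most 1 count in any library and ENO4 at most 3.

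LDHB took most of the reads of the lactate dehydrogenase genes analysed in every library. Counts on processed copies of LDHA were not analysed here, so its level is uncertain where reads were split. Over C1 to C6 the level of LDHB was 866, 1088, 1089.8, 230.2, 155 and 378 CPM. The first 3 libraries were again the highest, C6 came next, and C2 and C3 were the only neighbours not separated by counting error. C3 exceeded C5 by 7.01-fold (6.30 to 7.83; chi-square of 3449), and in C4, C5 and C6 alone C6 exceeded C5 by 2.44-fold (2.15 to 2.76). In TPM, with no test, C3 exceeded C5 by only 2.66-fold. LDHA had 4, 5, 5, 10, 3 and 18 counts in C1 to C6, or 1.24 to 9.08 CPM, and its sum was below the 60 counts set as the minimum for a test. Its ratio of C6 to C5 was 7.33 with a wide interval of 2.14 to 38.8, and no neighbouring pair was separated. In TPM, LDHB exceeded LDHA by 898, 975 and 1032 times in C1, C2 and C3, by 97.2 and 299 times in C4 and C5 and by 67.7 times in C6. LDHC, the testis form, was not analysed here.

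The 3 balances were then set side by side as the log2 ratio of the counts of the first to the second gene. For ALDOA over ALDOC they were -5.91, -6.32, -6.55, 0.09, -0.01 and -3.85 in C1 to C6. For ENO1 over ENO2 they were -6.36, -6.60, -6.08, 0.21, 0.95 and 0.32. For LDHA over LDHB they were -8.98, -9.22, -9.17, -5.72, -6.97 and -5.38. All 3 were lowest in C1, C2 and C3. C6 was separated from both C5 and C1 in the aldolase balance, while in the enolase balance C6 and C4 did not differ beyond counting error and in the lactate dehydrogenase balance no neighbouring pair did. From the lowest to the highest library the aldolase balance spanned 6.64 log2 units (Woolf interval 6.15 to 7.13), the enolase balance 7.55 (6.95 to 8.15) and the lactate dehydrogenase balance 3.83 (2.40 to 5.27). In C4, C5 and C6 alone the spans were 3.94, 0.74 and 1.59, and in C1, C2 and C3 alone they were 0.64, 0.52 and 0.24. A ratio within a library does not depend on its total or on the hormone genes.

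**Figure D2:**
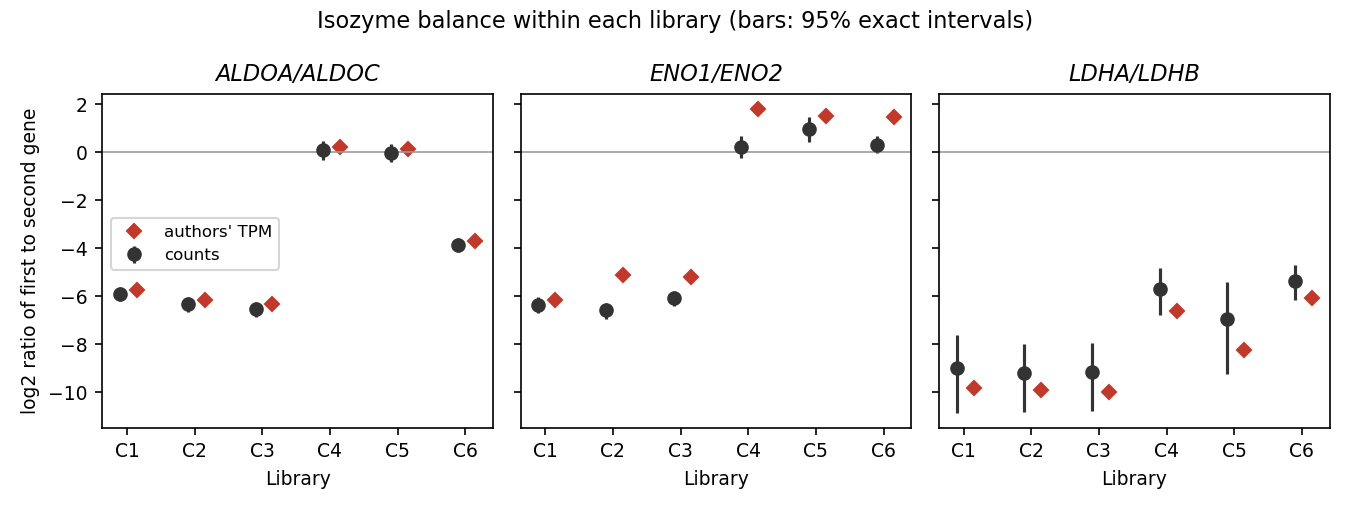
Log2 ratio of ALDOA to ALDOC, ENO1 to ENO2 and LDHA to LDHB within each library, from counts (circles, with 95% exact intervals) and from the authors' TPM (diamonds), with 0 marking equal values. The aldolase balance of C6 is at -3.85, between C4 and C5 near 0 and C1, C2 and C3 below -5.9, while the enolase balance of C6 is at 0.32, beside C4 and C5.

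C6 was the library in which ALDOC and ENO2 parted. The counts of ALDOC over those of ENO2 came to 0.973, 0.937, 1.37, 1.36, 2.60 and 12.8 in C1 to C6. The ratio in C6 was 4.95 times that in C5, the next highest (Woolf interval 3.37 to 7.27), and 13.7 times that in C2, the lowest (11.3 to 16.6). From C4 to C6 ALDOC was 16.8-fold higher, whereas ENO2 was 1.78-fold higher (1.33 to 2.41) and LDHB 1.64-fold higher (1.47 to 1.84). ENO2 over LDHB was instead at 2.96, 2.47 and 2.13 in C1, C2 and C3 and at 0.146, 0.125 and 0.159 in C4, C5 and C6. These contrasts were chosen after the values were seen.

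Markers of other cell types differed between the same libraries. The 8 astrocyte markers with a row summed to 4038, 5349, 5240, 157, 126 and 10698 CPM in C1 to C6, with 6, 6, 6, 3, 1 and 8 of the 8 above 10 CPM and none at 0. Most of that sum was S100B, which other glia and folliculostellate cells also express. Without it the sum was 741, 857, 1126, 53.8, 26.9 and 1355 CPM. Over C1 to C6 AGT, the angiotensinogen gene of astrocytes, was at 268, 292, 460.1, 0.438, 0.827 and 644 CPM. The 5 oligodendrocyte markers were all highest in C6, with a sum of 4289 CPM against 18.6 to 407 CPM elsewhere, and MAG was at 0 in C5. The 8 neuron markers summed to 5445, 5148, 4925, 502, 708 and 334 CPM, and SYN1 was at 0 in C6. The 13 cerebellar markers summed to 8947, 7555, 6888, 994, 644 and 711 CPM, with PCP2 at 0 in C4 and C5 and ZIC2 at 0 in C5. ALDOC and the astrocyte list were thus both low in C4 and C5, although the list was highest in C6 and ALDOC in C3, and ENO2 and the neuron list were both below their levels of C1, C2 and C3 in C6. Among C4, C5 and C6, however, ENO2 was highest in C6, where the sum of the neuron list was lowest, and lowest in C5, where that sum was highest. Single neuron markers differed among these libraries. SYT1 and RBFOX3 were highest in C4 and STMN2 in C6 (86.3 CPM), while the others were highest in C5, among them SNAP25 at 270 CPM. Other lists ran from 31.8 to 197 CPM (endothelium), 158 to 964 CPM (immune cells), 1.51 to 17.2 CPM (skeletal muscle) and 0.413 to 45.4 CPM (red blood cells). The part of these cell types in the isozyme levels was not tested.

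**Figure D3:**
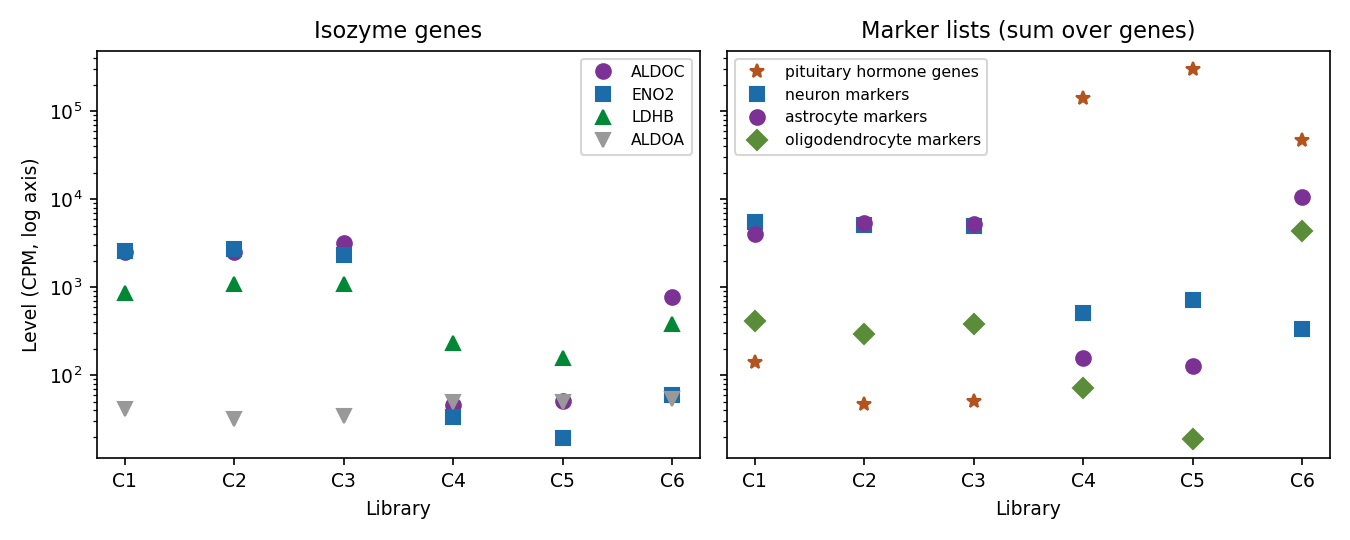
Levels of ALDOC, ENO2, LDHB and ALDOA (left) beside the summed levels of 4 marker lists (right) in each library, in CPM on a log axis, with 1 point per gene or list and library. In C6 the astrocyte sum reaches 10698 CPM and ALDOC 772 CPM, while the neuron sum is at 334 CPM and ENO2 at 60.1 CPM.

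PGK1, PKM and PFKM varied far less than ALDOC and ENO2. PGK1, an X-linked gene whose enzyme makes the first ATP of the pathway, stood at 368, 424, 491, 253, 204 and 240.2 CPM. C3 was 2.41-fold above C5 (2.17 to 2.68; chi-square adjusted p = 2.96e-101), but with TMM, DESeq2 or hormone-free scaling the ratio was 1.77, 1.75 or 1.95, the lowest library was C6 and PGK1 was not called. In C4, C5 and C6 alone the ratio was 1.24, again not called. C4 and C6 did not differ beyond counting error. PKM, which makes pyruvate, stood at 42.0, 18.3, 39.4, 39.0, 68.6 and 64.6 CPM. C5 and C6 were highest and C2 lowest, at a ratio of 3.75 (2.72 to 5.25; chi-square adjusted p = 9.53e-19). Without C2 that ratio was 1.76 and PKM was not called. The tables count genes, so the M1 and M2 forms of PKM could not be told apart. PFKM, the muscle subunit of phosphofructokinase, had 20, 23, 12, 14, 34 and 12 counts, with a ratio of 3.09 between C5 and C3 (1.56 to 6.56; chi-square adjusted p = 0.00509) that was 1.89 and no longer called without C5.

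Across the 6 libraries 7 of 8 tested members were called, which required a ratio of 2 or more and an adjusted p below 0.05, beside 80.9% of 13248 features tested. ALDOA was the exception. The share called among the members was near that background and says nothing particular about them. Their median ratio was 3.42, against 4.31 over all features tested. ENO2 and ALDOC stood at the upper end, since 1.62% of the features tested had a ratio at least as large as that of ENO2 and 3.81% one at least as large as that of ALDOC. LDHB was within the upper 35.5%, and the other 5 tested members had ratios below that of the median feature. Of the 7 called members, ENO2 was highest in C2, ALDOC, LDHB and PGK1 in C3, PKM and PFKM in C5, and ENO1 in C6. Of all features tested, 17.1, 12.3, 13.6, 11.4, 9.42 and 17.0% were called with their highest level in C1 to C6. With TMM, DESeq2 or hormone-free scaling 7 members were again called, ALDOA in place of PGK1, beside 79.7, 79.9 and 80.3% of the features. In C4, C5 and C6 alone 4 of 8 members were called, namely ALDOC, ENO2, LDHB and PFKM, beside 40.2% of the features tested there. PFKM had a ratio of 2.32 there, and ENO1, PKM, PGK1 and ALDOA, not called, had ratios of 1.999, 1.76, 1.24 and 1.09. In C1, C2 and C3 alone PKM was the 1 member called of 7 tested, beside 10.3%.

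The 9 members together took 0.642, 0.681 and 0.720% of the gene counts in C1, C2 and C3, 0.0700% in C4 (Wilson interval 0.0667 to 0.0735%), 0.0601% in C5 (0.0570 to 0.0632%) and 0.166% in C6 (0.160 to 0.172%). The share in C3 was 12.0-fold that in C5 (11.4 to 12.7), and 8.82-fold when the hormone genes, 30.0% of the counts of C5, were left out of the totals. ALDOC, ENO2 and LDHB supplied 92.3, 92.5 and 91.6% of the member counts in C1, C2 and C3, 44.2% in C4, 37.5% in C5 and 73.0% in C6. Summed over these 3 genes the level ran from 225 to 6598 CPM, a ratio of 29.3, or 5.37 in C4, C5 and C6 alone. Summed over ALDOA, ENO1, LDHA, PKM and PFKM it ran from 87.8 CPM in C2 to 208 CPM in C6, a ratio of 2.37, or 1.52 in C4, C5 and C6 alone. This split of the members, with PGK1 in neither sum, was made with their levels known, so the contrast between the sums is no separate result. In TPM the order within a library was ENO2, ALDOC, LDHB and PGK1 from the top in each of C1, C2 and C3. It began with LDHB and PGK1 in C4 and C5, and with ALDOC, LDHB and PGK1 in C6. The order in CPM differed in places. There PGK1 stood above LDHB in C4 (253 against 230.2 CPM) and C5 (204 against 155 CPM). ALDOC stood above ENO2 in C3 (3182 against 2326 CPM).

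Of 18 other glycolytic enzyme genes listed, 17 had a row, 8 reached 60 counts and 7 of these were called, beside the same 80.9%. GAPDH, which oxidises glyceraldehyde 3-phosphate, was at 1753, 1674, 1857, 867, 1005 and 1592 CPM. TPI1, the triose-phosphate isomerase, was at 328, 299.7, 377, 199, 175 and 259.9 CPM. Both exceeded the ratio of 2 by little, at 2.14 and 2.15, and neither was called under TMM, DESeq2 or hormone-free scaling, where the ratios were 1.60 to 1.87. Nor were they called without C4 (GAPDH, 1.85), C3 (TPI1, 1.87) or C5 (TPI1, 1.89), or in C4, C5 and C6 alone (1.84 and 1.48). GPI, the glucose-6-phosphate isomerase, was at 301, 259, 270.2, 168, 166 and 274 CPM, with a ratio of 1.81, or 1.65 in C4, C5 and C6 alone, and was not called.

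PGAM1, the phosphoglycerate mutase of brain and most tissues, was at 840.5, 1004, 717, 257, 334 and 265 CPM. It was high in C1, C2 and C3 and its ratio was 3.90 (3.57 to 4.27), or 3.45 to 3.61 under the other scalings. In C4, C5 and C6 alone its ratio was 1.30 and it was not called. PGAM2, the muscle form, had 12 to 38 counts and a ratio of 2.90 (1.48 to 6.09), called here and with TMM factors at 2.41, but not with DESeq2 size factors or the hormone-free total, where the ratio was 2.36 and 2.35 and the adjusted p missed the threshold. BPGM, which makes 2,3-bisphosphoglycerate, was highest in C5 with 30 counts and had 9 to 16 counts elsewhere.

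PFKL and HK1 were lowest in C1 and highest in C6. PFKL, the liver subunit of phosphofructokinase, was at 7.29, 16.5, 21.2, 20.6, 21.1 and 54.0 CPM, with a ratio of 7.41 (4.42 to 13.2) that was 3.28 without C1, 2.91 without C6 and 2.62 in C4, C5 and C6 alone. The counts of PFKM over those of PFKL ran from 0.112 in C6 to 1.18 in C1, a 10.5-fold difference (Woolf interval 4.35 to 25.3). HK1, the main hexokinase of brain, had 4, 13, 15, 20, 14 and 27 counts, with a ratio of 7.94 (2.77 to 31.2) that was 2.86 without C1, 5.10 without C6 and 2.35 in C4, C5 and C6 alone. HK2 had at most 8 counts, HK3 at most 14, PKLR at most 5, HKDC1 at most 1, and PGK2, the testis phosphoglycerate kinase, had 0 in every library.

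**Figure D4:**
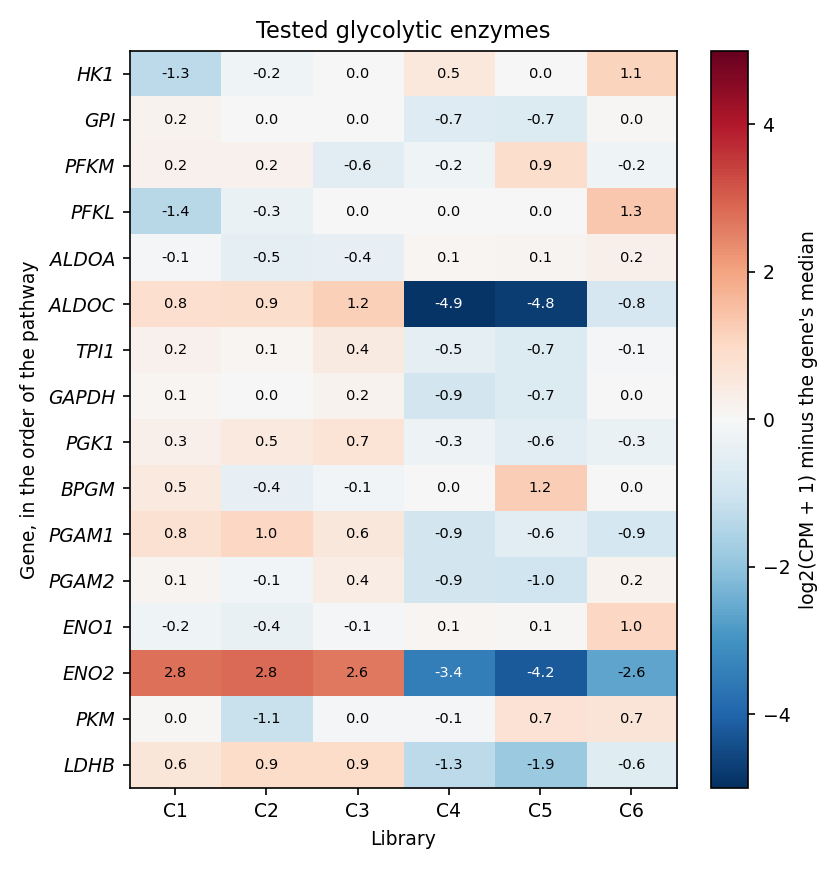
The 16 tested glycolytic enzyme genes in pathway order (rows) and the 6 libraries (columns), as log2(CPM + 1) minus the gene's own median over the libraries. ENO2 and ALDOC hold the extremes, PGAM1 and LDHB fall from C1, C2 and C3 to C4 and C5 to a lesser degree, and PFKL and HK1 are highest in C6.

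Summed over the genes of each step, enolase and aldolase were the steps with the widest range, at ratios of 46.3 and 33.9 in CPM, followed by lactate dehydrogenase at 6.97. The other 8 steps stayed between 1.81 and 4.17 in CPM. In TPM enolase and aldolase again had the widest range, at 48.6 and 17.3, but the order below them changed. Lactate dehydrogenase was at 2.65 there, below pyruvate kinase (8.82), phosphofructokinase (7.34) and hexokinase (6.62). In C4, C5 and C6 alone the ratio was 2.32 for enolase, 8.69 for aldolase and 2.47 for lactate dehydrogenase. In TPM the enolase step stood at 791, 469 and 673 in C1, C2 and C3 and at 30.2, 16.3 and 36.4 in C4, C5 and C6, while the GAPDH step stood at 282, 290.2 and 376 and at 329, 409 and 493. The step with the highest TPM was thus enolase in C1, C2 and C3 and GAPDH in C4, C5 and C6. In CPM, aldolase was instead highest in C3, at 3216 against 2360 for enolase. Enolase and aldolase were close in C1 (2599 and 2540 CPM) and C2 (2719 and 2553 CPM). The pyruvate kinase step stood at 1.51 to 13.3 TPM, the phosphofructokinase step, without PFKP, at 0.972 to 7.13 TPM and the hexokinase step at 0.243 to 1.61 TPM.

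Genes around the pathway were counted by list, to be read beside the 80.9% called over all features and the 17.0% called with their highest level in C6. These lists were not tested against that background. Of the transport genes, 6 of 6 tested were called, 4 of them highest in C6. SLC2A1, the glucose transporter of endothelium and glia, was at 39.9, 52.3, 47.7, 16.2, 12.8 and 107 CPM, and SLC2A4, the insulin-regulated transporter of muscle and fat, was highest in C4 at 23.6 CPM against 1.29 to 4.13 elsewhere. BSG, the chaperone of lactate transporters, ranged from 152 to 321 CPM, and MPC2, a subunit of the mitochondrial pyruvate carrier, from 52.5 to 130.2 CPM. Of the regulators, 3 of 4 were called. PFKFB3, which makes the activator of phosphofructokinase, was at 30.0, 21.6, 15.9, 7.44, 3.31 and 15.6 CPM. FBP1, an enzyme of the reverse pathway, was highest in C5 at 24.4 CPM and lowest in C2 at 1.10 CPM. TIGAR, a phosphatase that lowers the same activator, ranged from 8.75 to 24.6 CPM.

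Of the pyruvate dehydrogenase genes and their regulators, 6 of 9 were called, beside the same 80.9% of all features. PDK4, a kinase that shuts the complex off, was at 42.5, 73.2, 93.1, 294, 76.5 and 292 CPM and thus high in C4 and C6, and PDK3 was highest in C6 at 21.7 CPM. PDHX ranged from 78.1 to 159 CPM, and DLD, with a ratio of 1.45, was not called. Of the genes that respond to low oxygen, 12 of 13 were called, beside the same 80.9%. NDRG1 and EGLN3 were highest in C6 at 47.4 and 55.5 CPM, against at most 3.86 and 9.63 CPM elsewhere. EPAS1, the hypoxia-inducible factor of endothelium, was highest in C4 at 565 CPM, the library in which fibroblast and smooth muscle markers summed to 8103 CPM against 154 to 1268 CPM elsewhere. MXI1 was at 217, 211, 195, 42.5, 34.7 and 79.7 CPM. The called genes of this list had their highest level in C1, C2, C3, C4 and C6 in 2, 1, 3, 2 and 4 cases and in C5 in 0 cases.

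Some genes followed an isozyme closely across the 6 libraries. Likeness was the root mean square difference of log2(CPM + 1), each gene centred on its own mean, among 2611 or 2612 named genes with a median of at least 50 CPM. The nearest genes to ALDOC were ST8SIA1 (0.24), LGI3 (0.31) and FAIM2 (0.37), against a median of 2.36 over all candidates. FAIM2 was at 640, 583, 751, 18.4, 20.7 and 272.5 CPM and so shared the middle level in C6. The nearest to ENO2 were PVALB (0.15), FAT2 (0.16) and TMEM178A (0.26), against a median of 2.85. PVALB, the parvalbumin gene of Purkinje cells and interneurons, was at 172, 176, 140.4, 0.875, 0.413 and 3.53 CPM, low in C6 as ENO2 was. Its levels in C4, C5 and C6 rest on 2, 1 and 7 counts, so that its distance depends on the pseudocount of 1 CPM. The same holds for TMEM178A, at 3.06, 1.24 and 3.53 CPM there, and for ST8SIA1, at 3.50 and 2.07 CPM in C4 and C5. It holds less so for LGI3 and FAT2, at 4.55 to 6.57 CPM in C4 and C5. LDHB was nearest to RAC1, HLF and PURG (0.15 to 0.16), ALDOA to RBX1, PSMD13 and JPT1 (0.11 to 0.12) and ENO1 to SKP1, RNF7 and HIBADH (0.12 to 0.13). LDHA, at 45 counts in all, was nearest to the mitochondrial gene ND4L (0.21), CFL2 and RHOBTB3, a match that rests on few counts.

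Some limits bear on the levels themselves. The deposited estimated counts of ALDOC were not whole (within 1e-06) in any library, while those of LDHA and PFKM were whole in all 6. ENO1, GAPDH, PGAM1, PGK1, PKM and LDHA have near-identical processed copies in mammalian genomes, and counts on such copies were not analysed here, so the levels of these genes are uncertain where reads were split. Genes were found by name, and 21457 of 26067 features had one. Features without a name were not searched for reads of any member, ALDOA included. Ratios of TPM between libraries have no test and depend on the library's own scale, since the median log2 ratio of TPM to CPM over 3335 features rose from -2.04 in C1 to -0.89 in C5. The same ratio of LDHB rose more, from -2.61 in C1 to -0.88 in C5, so its range over the libraries was smaller in TPM than in CPM. The enolases moved differently. For ENO2 the same ratio went from -1.72 in C1 to -2.56 in C2, and its TPM in these libraries was 780 and 456 although its CPM differed by 1.05-fold. For ENO1 it went from -0.73 in C4 to -1.67 in C5, so the ratios of these genes in TPM carry shifts that their counts do not.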

How the data were processed

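Libraries were made from pituitary RNA of 6 sheep by the Oxford Nanopore protocol for kit SQK-PCS109 with SQK-PBK004, per the labels' protocols. The submitters' processing notes name minimap2 2.17-r941 as a tool. The quantifier, genome build, annotation and filters were not given in the sources used here. The authors' estimated counts, as deposited, were not normalized and were rounded to whole numbers here. Deposited TPM values, made by the authors, add up to 1000000 in each library. Of 26071 rows, 4 held annotation text and were left out. No library has a breed label, so none was put in a group.

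Rounded counts were divided by the library's gene total to give CPM. Features with at least 60 counts entered a chi-square test of homogeneity over the libraries, adjusted by Benjamini-Hochberg over all 13248. A call needed a highest-to-lowest CPM ratio of 2 or more, with 0 set to 3 counts, and an adjusted p below 0.05. The test compares libraries, not conditions. It was tried on simulated Poisson counts, which hold counting error only, so the trial cannot show how the test behaves on amplified libraries. Between C1 and C2, the pair most alike, the mean chi-square per feature was 8.43, more than counting error alone gives. Shares have Wilson intervals, ratios exact conditional (Clopper-Pearson) intervals, and ratios of ratios Woolf intervals, at 95%. Members, lists and tests were chosen with earlier results of these data known. The genes named were all members, the other measured glycolytic enzymes, up to 4 genes of each further list (the 2 highest in median CPM, the 2 called ones with the largest ratios) and the 3 nearest to each aldolase, enolase and lactate dehydrogenase gene. Marker genes at 0 were named after their values were seen. Alternatives were other minimums and ratios, edgeR 4.0.16 TMM factors, DESeq2 1.42.0 size factors, totals without hormone genes, thinned counts, TPM, and libraries left out. Python 3.11.15 and scipy 1.17.1 were used. Symbols came from the files and, for ND4L, a RefSeq table (ARS-UI_Ramb_v3.0). Some genes of the list of other glycolytic enzymes are not reported here and were left out of the sums by pathway step.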

Additional observations from a re-analysis of the deposited data

How the results depend on the processing

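No paired analysis was possible because the labels give no groups. Of 8 tested members, 7 were called, beside 80.9% of all features tested. With minimums of 20 and 200 counts 8 of 9 and 6 of 7 were called, beside 79.1 and 78.9%. With ratios of 1.5 and 3 the count was 8 and 5 of 8, beside 88.8 and 64.3%. It was 7 under each scaling, beside 79.7 to 80.3%, and 6 with thinned counts, beside 80.5%. With 1 library left out it was 6 to 7, beside 73.9 to 78.9%. It was 1 of 7 in C1, C2 and C3 alone and 4 of 8 in C4, C5 and C6 alone, beside 10.3 and 40.2%. In TPM, with no test, 7 of 8 members had a ratio of at least 2, beside 91.5% of the same features. Of 8 other glycolytic enzymes tested 7 were called. With 1 library left out the count was 5 to 7 of 7 or 8, beside 73.9 to 78.9% of the features. It was 4 of 5 with a minimum of 200 counts, beside 78.9%. With a ratio of 3, DESeq2 size factors or the hormone-free total it was 4 of 8, beside 64.3, 79.9 and 80.3%. It was 1 of 6 in C1, C2 and C3 alone and 2 of 6 in C4, C5 and C6 alone, beside 10.3 and 40.2%. Over all features 10723 were called, 9272 to 9760 with 1 library left out, 6286 with a minimum of 200 counts, 1061 in C1, C2 and C3 alone and 3688 in C4, C5 and C6 alone. The aldolase balance spanned 6.64 log2 units, 6.42 to 6.64 with 1 library left out, 0.64 in C1, C2 and C3 alone and 3.94 in C4, C5 and C6 alone. For the enolases these values were 7.55, 6.92 to 7.55, 0.52 and 0.74, and for lactate dehydrogenase 3.83, 3.50 to 3.83, 0.24 and 1.59. The ratio of the members' summed share was 12.0, 10.3 to 12.0 with 1 library left out, 8.82 without hormone genes and 7.19 in TPM, and, in settings added after seeing the data, 1.12 in C1, C2 and C3 alone and 2.76 in C4, C5 and C6 alone. The ratios of step sums and of summed members in C4, C5 and C6 alone were likewise added after seeing the data. Fewer libraries and features were tested in the reduced settings. The cause of the other changes was not tested. TMM and DESeq2 scaling raised the levels of C5 by 0.30 and 0.39 log2 units and lowered those of C3 by 0.17 and 0.18. No balance with PFKP could be computed.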
